A study of Mus musculus with 6 samples.

Results

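The genes described here encode the chaperones of the cytosol and of mitochondria, chosen by name: the Hsp70 and Hsp90 systems with their cofactors, the chaperonin TRiC, prefoldin, and the mitochondrial chaperones. The rule named 35 genes, and 32 of them had a row among the 23225 gene symbols of the deposited count table. The levels of Hspa4l, Tcp1 and Cct7 were not analysed here, but their start regions were searched. The data were RNA-seq counts from XBP1-KO dendritic cells (3 libraries, called a, b and c) and WT dendritic cells (3 libraries, likewise a, b and c). The XBP1-KO mice carried a conditional deletion of XBP1 in CD11c positive cells, while the controls were wild type. The labels name neither the Cre line nor whether the controls carried a floxed allele, and cells without CD11c keep an intact gene. All mice were C57BL/6 and bore tumours grown from ID8 cells, which derive from mouse ovarian surface epithelium, and tumour-associated dendritic cells were sorted at day 23, with ascites given as the source. RNA of the 3 samples of a genotype was isolated independently, but the labels do not say whether each came from its own animal. The p-values therefore refer to the spread among these libraries, part of which may be technical.

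Hsp70 proteins bind unfolded stretches of polypeptide in cycles of ATP hydrolysis, which J-domain proteins start and nucleotide exchange factors such as Hsp110 and the BAG proteins end. Hsp90 takes partly folded clients, among them kinases and steroid receptors, from Hsp70 through the adaptor Stip1, and TRiC folds actin and tubulin inside a closed double ring after delivery by prefoldin. Many of these genes are driven by the heat shock factor HSF1, which binds repeats of the unit GAA in alternating orientation. Chaperones of the endoplasmic reticulum (ER) belong to another programme, that of XBP1 and ATF6, which bind elements such as the ERSE.

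The start regions of the genes were searched for these elements. The letters searched were 3 heat shock units, TTC and GAA in alternation with 2 bases of any kind between units, the ERSE, CCAAT and CCACG with 9 bases of any kind between them, and the core TGACGTGG of the unfolded protein response element, on both strands of 300-base RefSeq windows (build GRCm38.p6; 250 bases before to 50 after a start). Of 28 chaperone genes with a window, 5 (17.9%) held the 3-unit heat shock element, against 0 of 27 ER chaperone genes and 0.662% of 27025 genes. These 5 were Hsph1, Dnajb6, Chordc1, Hspd1 and Hspe1. Hspa8, Hsp90aa1, Hsp90ab1, Hspa9, Hsf1, Cct4 and Pfdn1 had no window and were not searched. Among the ER genes without a window was Hyou1. The shorter 2-unit form, TTCNNGAA or GAANNTTC, was in 14 of 28 chaperone genes (50%), 2 of 27 ER chaperone genes (7.41%) and 17% of all genes, and it lies inside every 3-unit match. The ERSE was in 0 of 28 chaperone genes, 7 of 27 ER chaperone genes (25.9%) and 0.137% of all genes, and TGACGTGG was in 0 of 28, 2 of 27 and 0.714%. A match says that the letters are there, not that a factor binds them. The start regions of 3 chaperones and of Hspa5, the ER Hsp70 known as BiP, are printed to show both kinds of element, from 250 bases before to 30 after the start. Capitals mark the 3-unit heat shock matches in Hspe1 (chr1:55087898-55088177, plus strand) and Chordc1 (chr9:18292017-18292296, plus strand), the 2-unit match in Hspa1a (chr17:34972127-34972406, minus strand) and the ERSE in Hspa5 (chr2:34771840-34772119, plus strand).
Hspe1: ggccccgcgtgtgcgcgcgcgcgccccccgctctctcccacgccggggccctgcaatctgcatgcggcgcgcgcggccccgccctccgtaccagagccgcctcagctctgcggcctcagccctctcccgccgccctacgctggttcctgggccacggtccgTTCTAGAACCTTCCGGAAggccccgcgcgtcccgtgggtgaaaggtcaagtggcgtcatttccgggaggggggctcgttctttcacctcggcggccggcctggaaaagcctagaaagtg
Chordc1: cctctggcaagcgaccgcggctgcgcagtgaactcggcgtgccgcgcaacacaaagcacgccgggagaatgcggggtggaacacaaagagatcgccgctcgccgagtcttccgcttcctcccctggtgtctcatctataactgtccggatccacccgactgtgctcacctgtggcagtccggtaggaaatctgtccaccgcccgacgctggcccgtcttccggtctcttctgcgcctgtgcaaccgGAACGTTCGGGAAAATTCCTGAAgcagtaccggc
Hspa1a: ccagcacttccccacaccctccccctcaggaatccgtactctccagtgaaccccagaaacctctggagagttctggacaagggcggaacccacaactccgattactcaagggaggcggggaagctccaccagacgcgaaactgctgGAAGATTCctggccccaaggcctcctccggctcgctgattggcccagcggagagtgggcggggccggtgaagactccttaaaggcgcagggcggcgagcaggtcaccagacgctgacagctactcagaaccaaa
Hspa5: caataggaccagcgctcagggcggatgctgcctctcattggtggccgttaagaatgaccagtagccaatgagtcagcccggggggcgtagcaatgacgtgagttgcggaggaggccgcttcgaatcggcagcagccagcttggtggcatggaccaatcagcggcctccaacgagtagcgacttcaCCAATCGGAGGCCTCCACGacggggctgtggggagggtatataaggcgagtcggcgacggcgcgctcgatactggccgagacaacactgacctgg

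Libraries held between 26946349 and 32709100 counts. Xbp1 had normalised levels of 32.5, 30.9 and 40.4 CPM (counts scaled to a common library size) in the XBP1-KO libraries and 67.2, 48.7 and 76.8 CPM in the WT libraries, and no XBP1-KO value reached a WT value. Its log2 fold change, XBP1-KO over WT, was -0.89 (SE 0.18; edgeR's quasi-likelihood test, adjusted p = 0.0545). The labels do not give the deleted exons, and reads from the rest of the gene would still be counted. All 13 dendritic cell markers were detected in every library. Of these, 10 lay lower and 3 higher in XBP1-KO, against 43.9% and 56.1% of all tested genes, and 0 had an adjusted p under 0.05. Itgax, the gene of CD11c, was among the higher ones, at 133 to 161 CPM in XBP1-KO and 94.3 to 109 CPM in WT. The summed ranges of the 13 (70448 to 100197 CPM in XBP1-KO, 75362 to 122485 CPM in WT) overlapped. On the second principal component XBP1-KO a lay farthest out, at -55, and XBP1-KO b and WT b lay at the other end, at 34.3 and 39.8, with the remaining 3 libraries between -15.6 and -1.55. Libraries XBP1-KO b and WT b also held the most erythroid RNA, with 4 marker genes summing to 145 CPM in XBP1-KO b and 136 CPM in WT b, and to between 12.9 and 19.1 CPM in the other 4 libraries. Summed over 13 markers, T and NK cell RNA lay at 327 to 476 CPM in XBP1-KO and 243 to 265 CPM in WT. Over 5 mast cell markers it lay at 71.9 to 117 CPM in XBP1-KO and 36 to 41.9 CPM in WT, and over 7 peritoneal macrophage markers at 1294 to 1869 CPM in XBP1-KO and 907 to 1121 CPM in WT. Over 6 B cell markers it lay at 345 to 502 CPM in XBP1-KO and 132 to 321 CPM in WT, and over 7 neutrophil markers at 104 to 399 CPM in XBP1-KO and 30.7 to 219 CPM in WT. Among the 7 macrophage markers, 4 overlapped between genotypes and 3 lay higher in XBP1-KO without overlap, against 8.8% of all genes. Most of the difference in the macrophage sum was that of Alox15, with 554, 813 and 586 CPM in XBP1-KO and 325, 306 and 278 CPM in WT. The summed ranges of 7 epithelial or mesothelial markers (106 to 186 CPM in XBP1-KO, 125 to 168 CPM in WT) and of 5 fibroblast markers (41.2 to 63.5 CPM in XBP1-KO, 41.5 to 45.8 CPM in WT) overlapped. At an adjusted p under 0.05 (edgeR), 4 of 13 T and NK cell, 3 of 4 tested mast cell and 1 of 7 macrophage markers were called. All were higher in XBP1-KO, where 0.157% of all genes were called higher. Of the B cell, neutrophil, epithelial or mesothelial, fibroblast and erythroid markers, 0 were called. No marker was at 0 in all libraries, and the part of other cells in the chaperone levels was not tested. In sorted bulk samples, fewer cells of a type and less RNA per cell cannot be told apart.

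No cytosolic or mitochondrial chaperone was called as different between the genotypes. All 32 passed the filter on low counts and were tested, and 0 were called at an adjusted p under 0.05 by edgeR's quasi-likelihood test, DESeq2 or limma-voom, where edgeR called 0.445% of all 15958 tested genes, 0.157% as higher and 0.288% as lower in XBP1-KO. The smallest adjusted p among them was 0.196, that of Hsp90ab1, and the largest 0.931. At an unadjusted p under 0.05 there were 4 of 32 (12.5%), 0 higher and 4 lower in XBP1-KO, against 12.9% of all genes, 4.59% higher and 8.26% lower. The libraries of the genotypes did not overlap for 6 of 32 chaperones (18.8%), 2 higher and 4 lower in XBP1-KO, against 19.2% of all genes, 8.8% higher and 10.4% lower. Both shares lay close to those of all genes. In sign alone, 14 chaperones were higher and 18 lower in XBP1-KO, against 56.1% and 43.9% of all genes. The median log2 fold change, XBP1-KO over WT, was -0.09 for the chaperones and 0.06 for all tested genes, and single values ran from -0.60 for Hspa1b to 0.68 for Hspb1, both of low counts. Without library XBP1-KO a the chaperone median was -0.010, and without XBP1-KO b and WT b it was -0.031 with 0 called.

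**Figure D1:**
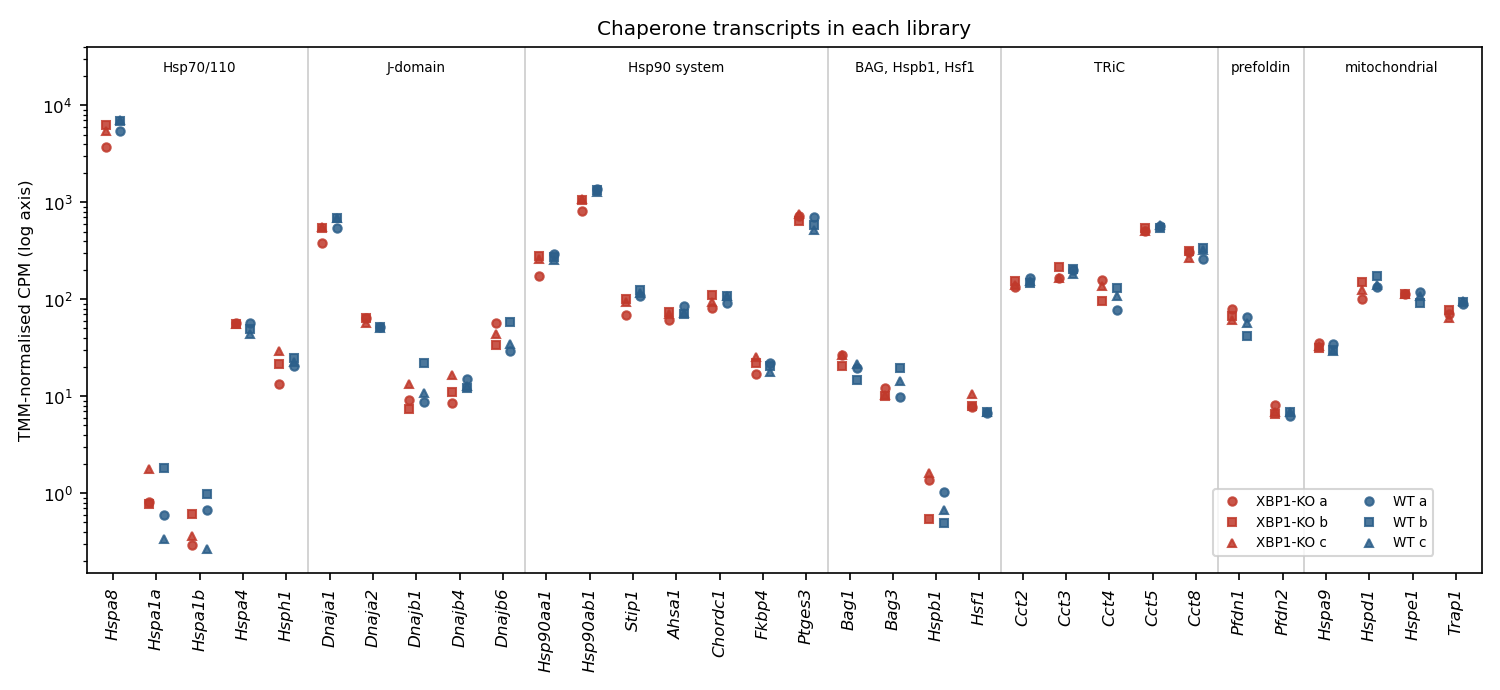
Normalised level (TMM-normalised CPM, log axis) of each of the 32 measured chaperone genes, ordered by role, with 1 point per library, XBP1-KO in red left of WT in blue. Levels span from under 1 CPM for Hspa1b to between 3756 and 7000 CPM for Hspa8, and for 26 genes the libraries of the genotypes overlap.

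Among the cytosolic Hsp70 and Hsp110 genes, the constitutive form was abundant and the stress-inducible forms had few counts in both genotypes. Hspa8, the constitutive Hsp70 known as Hsc70, had 3756, 6247 and 5480 CPM in the XBP1-KO libraries and 5438, 6950 and 7000 CPM in the WT libraries. The lowest value was that of XBP1-KO a, and the remaining values overlapped. Its log2 fold change was -0.32 (SE 0.19, adjusted p = 0.506, edgeR). By itself Hspa8 made up 52.1% ± 4.81 of the summed level of the 32 genes in XBP1-KO and 55.3% ± 3.63 in WT (SD, n = 3 each). Hspa1a, one of 2 inducible Hsp70 genes, had 0.805, 0.776 and 1.79 CPM in XBP1-KO and 0.600, 1.81 and 0.334 CPM in WT. Hspa1b, its copy, had 0.293, 0.607 and 0.364 CPM in XBP1-KO and 0.671, 0.991 and 0.267 CPM in WT. These 2 genes are nearly identical, and the authors' counting could split their reads between them. How it treated reads that match both copies is not stated, so their level could be understated. Summed, they had 30, 41 and 71 counts in XBP1-KO and 36, 79 and 18 in WT, a log2 fold change of -0.0044 (SE 0.54, adjusted p = 0.997). Its 95% interval ran from -1.17 to 1.16, wide enough to hold a difference of about 2-fold in either direction, given the spread between libraries. Hspa4 and Hsph1, which exchange the nucleotide of Hsp70, had log2 fold changes of 0.16 and -0.09 (SE 0.14 and 0.24). Hspa4 had 56.5, 56.0 and 55.6 CPM in XBP1-KO and 56.8, 48.9 and 44.3 CPM in WT. Hsph1 had 13.4, 21.4 and 29.4 CPM in XBP1-KO and 20.5, 25.0 and 22.7 CPM in WT, so that both its lowest and its highest value lay in XBP1-KO.

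J-domain proteins, the partners that send clients to Hsp70, gave 1 of 5 genes with an unadjusted p under 0.05, against 12.9% of all genes. They gave 0 calls, against 0.445% of all genes. Dnaja1, a partner of Hspa8, had 377, 550 and 550 CPM in XBP1-KO and 542, 694 and 693 CPM in WT. WT a lay just under XBP1-KO b and c, so the genotypes overlapped. The log2 fold change was -0.39 (SE 0.17, unadjusted p = 0.0379, adjusted p = 0.351, edgeR), and without XBP1-KO a it was -0.23. Dnaja2, its relative, had 63.7, 63.9 and 56.8 CPM in XBP1-KO and 52.3, 51.2 and 49.96 CPM in WT, with all XBP1-KO values above all WT values. Its log2 fold change was 0.27 (SE 0.13, adjusted p = 0.415). Dnajb1, the main heat-inducible J-domain protein, had 9.15, 7.39 and 13.4 CPM in XBP1-KO and 8.69, 22.1 and 10.8 CPM in WT. The value of WT b decided its direction: the log2 fold change was -0.47 with all libraries and 0.011 without WT b. Dnajb4 had 12.1 ± 4.07 CPM in XBP1-KO and 13.4 ± 1.56 CPM in WT, and Dnajb6, known for holding back protein aggregation, had 44.9 ± 12.0 CPM in XBP1-KO and 40.6 ± 15.6 CPM in WT (SD, n = 3 each). Neither difference was larger than the spread between libraries (edgeR, adjusted p = 0.834 and 0.858).

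The Hsp90 system held the chaperone with the smallest p, Hsp90ab1. Hsp90ab1, the constitutive cytosolic Hsp90, had 813, 1064 and 1088 CPM in XBP1-KO and 1385, 1355 and 1286 CPM in WT. Every XBP1-KO library lay below every WT library. Its log2 fold change was -0.44 (SE 0.14, 95% interval -0.75 to -0.13), with an unadjusted p of 0.00827 and an adjusted p of 0.196 in edgeR. The adjusted p was 0.0931 with DESeq2, the smallest of any chaperone in any alternative, and reached 0.559 without XBP1-KO a. Stip1, the adaptor that hands clients from Hsp70 to Hsp90, had 68.6, 102 and 93.0 CPM in XBP1-KO and 108, 126 and 115 CPM in WT. Its genotypes did not overlap either, with a log2 fold change of -0.41 (SE 0.15, unadjusted p = 0.0198, adjusted p = 0.276) that was -0.26 without XBP1-KO a. Hsp90aa1, the inducible Hsp90, had 172, 282 and 262 CPM in XBP1-KO and 290, 274 and 252 CPM in WT. XBP1-KO a stood below the other 5 libraries, which overlapped, and without it the log2 fold change of -0.19 was -0.0048.

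The remaining cofactors of Hsp90 showed no common direction. Ahsa1, an activator of the Hsp90 ATPase, had 68.5 ± 6.23 CPM in XBP1-KO and 75.5 ± 7.96 CPM in WT. Chordc1, a co-chaperone whose window printed above holds 3 matches to the 3-unit form, had 94.7 ± 14.3 CPM in XBP1-KO and 102 ± 9.69 CPM in WT. Fkbp4, an immunophilin of steroid receptor complexes, had 21.6 ± 4.17 CPM in XBP1-KO and 20.01 ± 2.18 CPM in WT (SD, n = 3 each). Ptges3, the co-chaperone p23 that stabilises the closed form of Hsp90, had 727, 646 and 757 CPM in XBP1-KO and 713, 583 and 519 CPM in WT, opposite in direction to Hsp90ab1 with overlapping libraries (log2 fold change 0.23, SE 0.14, adjusted p = 0.537). Of the 7 genes of this system, 5 lay lower and 2 higher in XBP1-KO, against 43.9% and 56.1% of all genes. Of the 7, 0 were called, against 0.445% of all genes.

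**Figure D2:**
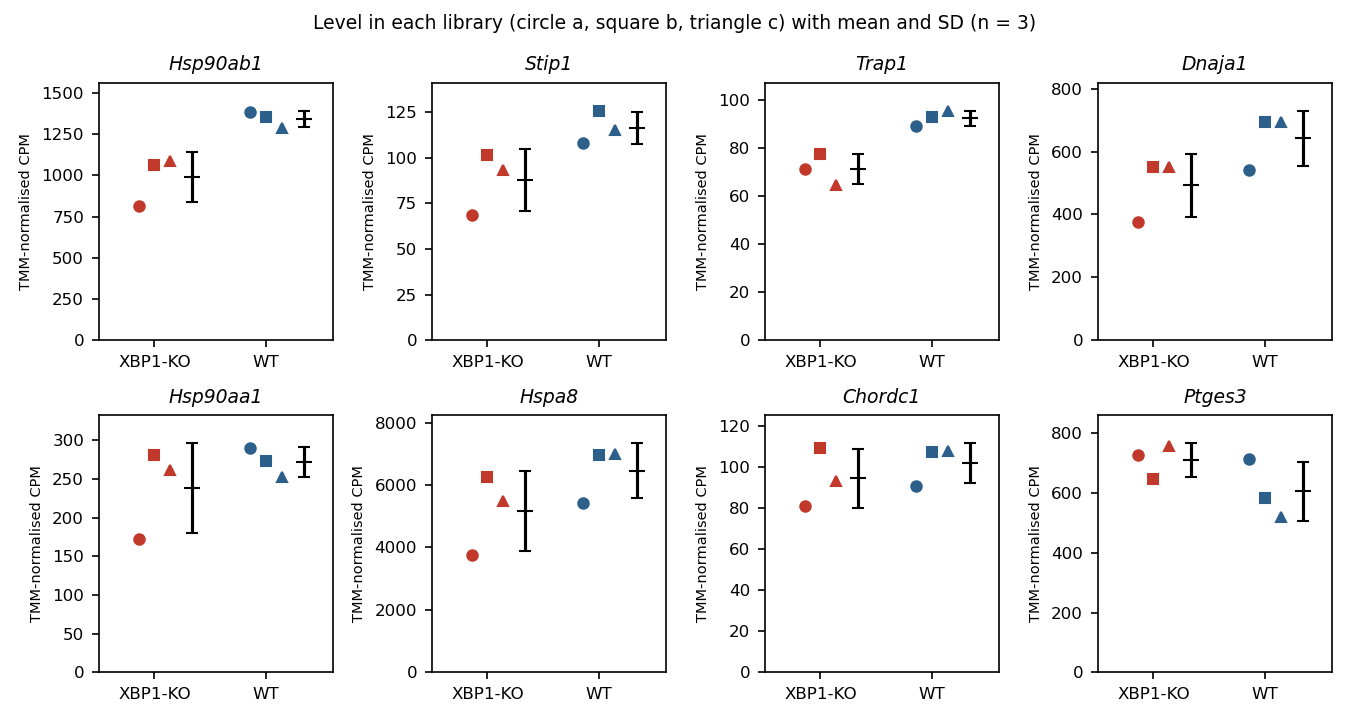
Normalised level (TMM-normalised CPM, linear axis from 0) of 8 chaperones in each library (circle a, square b, triangle c), XBP1-KO left of WT, with the mean and SD over 3 libraries in black. The 8 were picked with the results known and include the 4 chaperones with an unadjusted p under 0.05 (edgeR's quasi-likelihood test). Hsp90ab1, Stip1 and Trap1 do not overlap between genotypes, while XBP1-KO a is the lowest library for 6 of the 8 genes. Among all 32 chaperones, 6 do not overlap (18.8%, against 19.2% of all genes). XBP1-KO a is lowest for 13 of the 32 (40.6%, against 17.4% of all genes).

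BAG proteins, the small Hsp and the heat shock factor were low. Bag1, a nucleotide exchange factor that links Hsp70 to the proteasome, had 26.5, 20.6 and 26.3 CPM in XBP1-KO and 19.5, 14.7 and 21.4 CPM in WT, with 1 WT library above 1 XBP1-KO library (log2 fold change 0.40, SE 0.19, adjusted p = 0.398). Bag3, the HSF1-inducible BAG protein of selective autophagy, had 12.3, 9.95 and 10.4 CPM in XBP1-KO and 9.85, 19.6 and 14.4 CPM in WT. Its highest value, like that of Dnajb1, Hspa1a and Hspa1b, was in WT b. That library held the highest value of 9 of the 32 chaperones (28.1%), against 17.9% of all genes. Hsph1 and Hspb1 were highest in XBP1-KO c, Hsp90aa1 in WT a and Chordc1 in XBP1-KO b. Hspb1, the small Hsp known as Hsp25, had 1.35, 0.540 and 1.61 CPM in XBP1-KO and 1.02, 0.496 and 0.668 CPM in WT. These are 14 to 53 counts a library, and the 95% interval of its log2 fold change ran from -0.54 to 1.89. Hsf1 itself had 7.80, 7.96 and 10.5 CPM in XBP1-KO and 6.75, 6.87 and 6.88 CPM in WT, without overlap, and with a log2 fold change of 0.36 (SE 0.22, adjusted p = 0.534). Single libraries carried part of these values: the log2 fold change of Hsf1 was 0.18 without XBP1-KO c, and that of Bag1 was 0.23 without WT b.

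TRiC is a double ring of different but related subunits, and 5 of the 7 that were named had a row. Per kilobase of the principal GENCODE transcript, in XBP1-KO Cct5 had 278 ± 11.4, Cct8 124 ± 11.9, Cct3 92.7 ± 13.8, Cct2 73.1 ± 5.57 and Cct4 52.0 ± 12.6 CPM. In WT the values per kilobase were 306 ± 11.4, 127 ± 16.8, 98.7 ± 6.60, 79.2 ± 4.64 and 42.3 ± 10.4 CPM in the same order (SD, n = 3 each). The order of the 5 means was the same in both genotypes. Cct5 had 505, 540 and 502 CPM in XBP1-KO and 573, 543 and 584 CPM in WT, 1 of the 6 chaperones without overlap, yet by a log2 fold change of only -0.14 (SE 0.12, adjusted p = 0.664). The other subunits had adjusted p-values between 0.601 and 0.931. The log2 fold change of Cct8, -0.037, was 0.019 under upper quartile scaling and 0.038 under scaling by library size. Cct6a, a subunit outside the named genes, had 131 ± 10.8 CPM in XBP1-KO and 130 ± 4.26 CPM in WT. Pfdn1 and Pfdn2, subunits of the prefoldin that feeds TRiC, had 69.7 ± 9.46 and 7.22 ± 0.867 CPM in XBP1-KO and 54.6 ± 12.2 and 6.65 ± 0.353 CPM in WT, with adjusted p-values of 0.427 and 0.858.

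Among the 4 mitochondrial chaperones, Trap1 had the smallest p. Trap1, the Hsp90 of the mitochondrial matrix, had 71.1, 77.3 and 64.7 CPM in XBP1-KO and 88.9, 92.9 and 95.1 CPM in WT. All XBP1-KO values lay below all WT values, and here XBP1-KO a was not the lowest. The log2 fold change was -0.38 (SE 0.13, 95% interval -0.65 to -0.10, unadjusted p = 0.0107, adjusted p = 0.217 in edgeR), and it was -0.38 without XBP1-KO a as well. Hspa9, the matrix Hsp70 known as mortalin, had 33.3 ± 1.98 CPM in XBP1-KO and 31.2 ± 2.62 CPM in WT (SD, n = 3 each). Hspd1 and Hspe1 encode the matrix chaperonin Hsp60 and its lid Hsp10. Their genes are transcribed in opposite directions, with 1 start of Hspd1 216 bases from that of Hspe1 in RefSeq, and they share the heat shock elements printed above. Hspd1 had 101.05, 149 and 123 CPM in XBP1-KO and 135, 175 and 139 CPM in WT. Hspe1 had 115, 113 and 114 CPM in XBP1-KO and 118, 92.6 and 108 CPM in WT. The 2 transcripts did not move in step: Hspe1 was nearly level in XBP1-KO, and WT b held the most Hspd1 and the least Hspe1.

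Ratios within a library do not depend on library scaling, and 3 were tested by a two-sided exact permutation test over the 6 libraries, whose smallest possible p is 0.1. The count ratio of Hsp90aa1 to Hsp90ab1 was 0.212, 0.265 and 0.241 in XBP1-KO and 0.210, 0.202 and 0.196 in WT. Every XBP1-KO value lay above every WT value, by a mean difference of 0.23 on the log2 scale (exact permutation p = 0.1, adjusted over the 3 ratios 0.3). The ratio of Hspd1 to Hspe1 was 0.881, 1.32 and 1.08 in XBP1-KO and 1.14, 1.89 and 1.28 in WT, with overlap (difference -0.38, exact permutation p = 0.3, adjusted 0.4). The ratio of Hspa8 to Hspa5, the cytosolic against the ER Hsp70, was 3.53, 4.68 and 5.18 in XBP1-KO and 4.81, 5.20 and 5.01 in WT. XBP1-KO a alone lay well below the rest, and the difference of -0.18 (exact permutation p = 0.4, adjusted 0.4) was -0.024 without it.

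The ER chaperones, whose genes XBP1 is known to drive, were set beside the chaperones of the cytosol and mitochondria. Of 33 ER chaperones and foldases tested, 27 lay lower and 6 higher in XBP1-KO, against 43.9% and 56.1% of all genes. At an adjusted p under 0.05, 2 fell and 0 rose, against 0.288% and 0.157% of all genes. At an unadjusted p under 0.05 there were 11 of 33 (33.3%), all lower, and the genotypes did not overlap for 14 of 33 (42.4%), all lower, against 8.26% and 10.4% of all genes in that direction. Of the 32 cytosolic and mitochondrial chaperones, 18 lay lower and 14 higher, with 4 (12.5%) and 4 (12.5%) in the same counts. The median log2 fold change was -0.23 for the ER list and -0.09 for the cytosolic and mitochondrial genes. The difference between the lists was not tested. Hyou1, the Hsp110 of the ER, had 21.8, 32.96 and 21.3 CPM in XBP1-KO and 54.3, 65.0 and 69.2 CPM in WT. It fell with a log2 fold change of -1.31 (SE 0.19, adjusted p = 0.0142), and Pdia4, a disulfide isomerase, with -0.75 (SE 0.15, adjusted p = 0.0466). Hsph1 and Hspa4, the Hsp110 proteins of the cytosol, had log2 fold changes of -0.09 (SE 0.24) and 0.16 (SE 0.14).

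**Figure D3:**
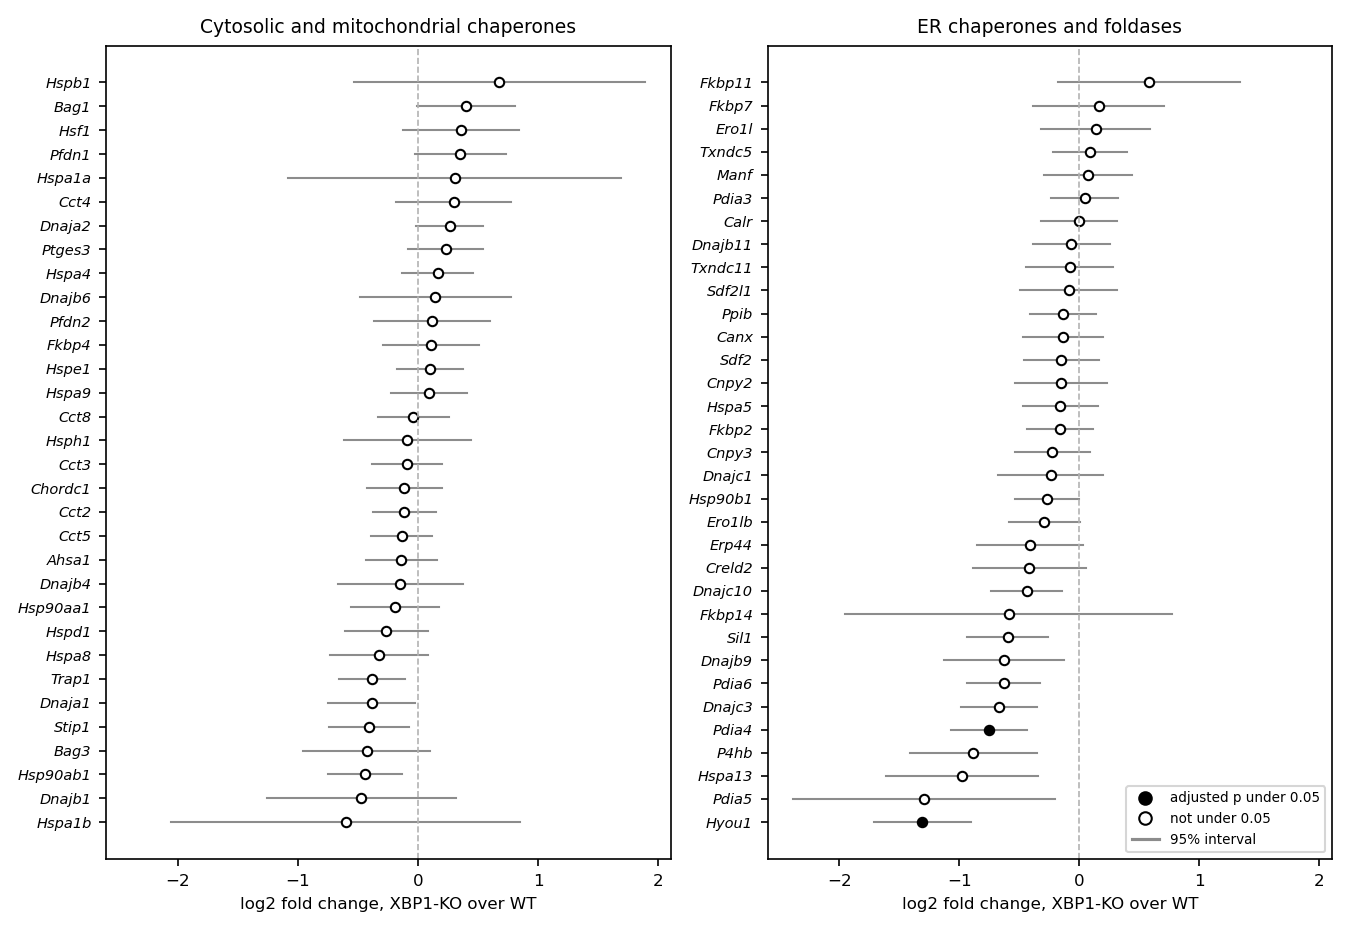
Log2 fold change, XBP1-KO over WT, with its 95% interval from edgeR's quasi-likelihood fit, for 32 cytosolic and mitochondrial chaperones and 33 ER chaperones and foldases, each ordered by value. Filled points have an adjusted p under 0.05: Hyou1 and Pdia4 among the ER genes, and 0 genes on the left.

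Chaperone genes of the cytosol and mitochondria outside the named set were also without a call. The counts at an unadjusted p under 0.05 in the lists that follow stand beside 12.9% of all tested genes, and the calls beside 0.445%. Of all tested genes, 56.1% lay higher and 43.9% lower in XBP1-KO. Of 45 other cytosolic chaperones and co-chaperones, 26 lay higher and 19 lower in XBP1-KO, 0 were called, and 5 (11.1%) had an unadjusted p under 0.05 in edgeR, with a median log2 fold change of 0.05. The smallest p was that of Hspa14, a ribosome-associated Hsp70, with 4.43, 3.31 and 2.03 CPM in XBP1-KO and 4.52, 8.42 and 7.75 CPM in WT (log2 fold change -1.09, SE 0.34, adjusted p = 0.177). Of 17 other mitochondrial chaperones and proteases, 12 lay higher and 5 lower, 0 were called, and 2 (11.8%) had an unadjusted p under 0.05, with a median of 0.09. There the smallest p was that of Hscb, the J-domain protein of iron-sulfur cluster assembly, with 18.2, 14.5 and 17.6 CPM in XBP1-KO and 10.5, 10.02 and 11.6 CPM in WT (log2 fold change 0.64, SE 0.19, adjusted p = 0.145). Immediate early genes, which respond to handling within minutes, gave 0 calls among 13 and 3 (23.1%) at an unadjusted p under 0.05. Of these, 1 was higher and 2 were lower in XBP1-KO. Their smallest p was that of Dusp1, a phosphatase of MAP kinases, with 45.6 ± 19.6 CPM in XBP1-KO and 24.9 ± 3.40 CPM in WT (SD, n = 3 each; adjusted p = 0.195). Of 15 cell division genes 0 were called and 4 (26.7%) had an unadjusted p under 0.05, with the smallest p at Mcm3, a subunit of the replicative helicase (57.2 ± 5.47 CPM in XBP1-KO and 90.4 ± 20.7 CPM in WT, adjusted p = 0.102).

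One library stood out in the chaperone data. XBP1-KO a held the lowest value of 13 of the 32 chaperones (40.6%), against 17.4% of all tested genes, while XBP1-KO b and XBP1-KO c held the lowest of 1 and 2. The 13 were Hspa8, Hsph1, Dnaja1, Dnajb4, Cct2, Cct3, Hspd1 and 6 of the 7 genes of the Hsp90 system, all but Ptges3. The summed level of the 32 genes was 8015, 11096 and 10300 CPM in XBP1-KO and 10620, 12241 and 12063 CPM in WT. Without Hspa8 it was 4259, 4850 and 4820 CPM in XBP1-KO and 5182, 5290 and 5063 CPM in WT. With Hspa8 the genotypes overlapped. Without it every XBP1-KO sum, also those of XBP1-KO b and c, lay below every WT sum, a difference that was not tested. Of the 13 dendritic cell markers, 5 had their lowest value in XBP1-KO a and another 5 in XBP1-KO b. Of all tested genes, 17.4% were lowest in XBP1-KO a and 15.1% in XBP1-KO b. The 5 markers lowest in XBP1-KO a were Flt3, Zbtb46, Irf8, Clec9a and Xcr1. Irf8 had 44.6, 105 and 88.1 CPM in XBP1-KO and 72.4, 134 and 63.3 CPM in WT. Xcr1, a chemokine receptor of cross-presenting dendritic cells, had 21.6, 115 and 62.1 CPM in XBP1-KO and 69.4, 171 and 66.8 CPM in WT. Clec9a, a receptor for dead cells on the same subset, had 5.45, 21.6 and 16.1 CPM in XBP1-KO and 18.4, 36.6 and 13.1 CPM in WT. Batf3, a transcription factor of that subset, went the other way, with 45.6, 20.9 and 38.0 CPM in XBP1-KO and 25.9, 33.3 and 38.5 CPM in WT, and like H2-Ab1, an MHC class II gene, it was highest in XBP1-KO a. The part of the makeup of the sorted cells in the chaperone levels was not tested.

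**Figure D4:**
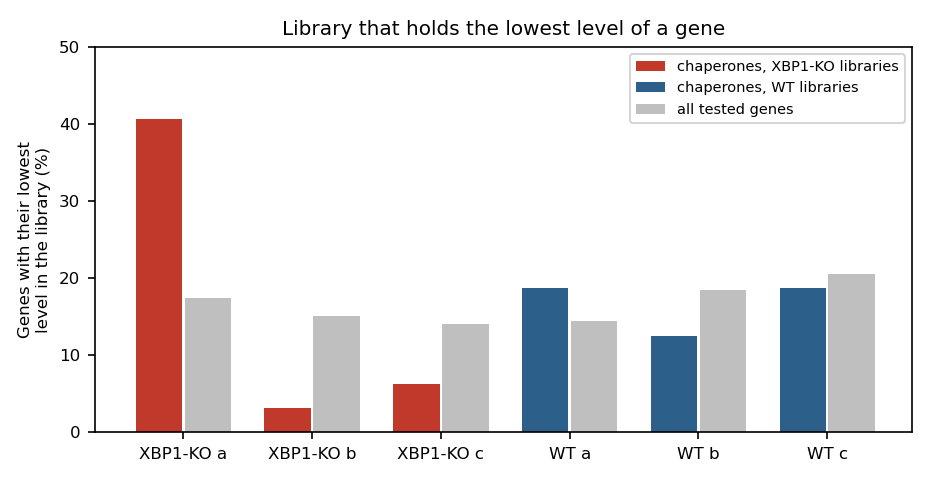
Share of genes (%) that have their lowest normalised level in each library, for 32 chaperones (coloured bars) and all tested genes (grey bars), with the XBP1-KO libraries left of the WT libraries. XBP1-KO a holds the lowest value of 40.6% of the chaperones and 17.4% of all genes.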

How the data were processed

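The submitters' processing notes name RSEM, edgeR and mouse build mm9, without roles or versions, and no source used here states the aligner, annotation or strand setting. The deposited values are whole-number counts per gene symbol, and the authors' normalised table was not used here. Columns name the genotype and no replicate, so the letters a, b and c follow column order and pair nothing.

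The test was edgeR 4.0.16 (R 4.3.3): filterByExpr with default settings left 15958 of 23225 genes, followed by TMM scaling, a robust quasi-likelihood fit with genotype as its only term, and a two-sided F test. Calls were made at 0.05 after Benjamini-Hochberg adjustment across every tested gene. CPM values are TMM-normalised. The SE of a fold change comes from its F statistic. Intervals are 95%. The common biological coefficient of variation was 0.25, so spread between libraries, not counting error, limits most genes. Libraries of the same genotype differed by more than sampling noise (chi-square per degree of freedom 22.5 to 74.5 over genes of at least 20 counts). The test was checked on simulated counts. Promoter windows came from RefSeq (GRCm38.p6), where 28 of 35 named genes had one, and transcript lengths from GENCODE M21, used only for levels per kilobase. Of 230 listed symbols, 222 matched a row.

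The genes and lists were chosen with earlier results of these data known, and no list was given a test. Named are all members and, of each other list, up to 3 called genes, or else the gene with the smallest p. Hspa5 and Xbp1 were named for the ratio and as a check of the labels. Cct6a, Xcr1, Clec9a, Irf8, Flt3, Zbtb46, Batf3, H2-Ab1, Itgax and Alox15 were named outside this rule. Alternatives were upper quartile scaling, library size alone, DESeq2 1.42.0, limma-voom (limma 3.58.1), other filters, each library left out, both b libraries left out, and Hspa1a and Hspa1b summed.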

Additional observations from a re-analysis of the deposited data

How the results depend on the processing

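In none of the alternatives was a chaperone called, higher or lower; Hspa1b was not tested where a CPM above 1 in 2 libraries was required. The count of called genes overall was 71, and it was 463 with DESeq2, 25 with library size alone, 47 with limma-voom, 252 with no filter on low counts, and 5 to 154 with 1 library left out. The chaperone median of -0.09 became -0.0066 with library size alone, where the all-gene median was 0.14 instead of 0.06, and ran from -0.13 to -0.010 with 1 library left out. The direction of 8 of the 32 fold changes turned in some alternative, each time without a call. Cct8 turned to 0.038 with library size alone and 0.019 with upper quartile scaling, Dnajb1 to 0.19 without XBP1-KO b and WT b, and Hspa1a to -0.0044 when summed with Hspa1b. With 1 library left out, Cct8 ran from -0.14 to 0.017, Dnajb1 from -0.76 to 0.011, Dnajb4 from -0.46 to 0.045, Dnajb6 from -0.073 to 0.47, Fkbp4 from -0.046 to 0.25, Hspa1a from -0.22 to 1.24, Hspe1 from -0.015 to 0.18 and Hsph1 from -0.41 to 0.16. The cause of these shifts was not tested. All 3 ratios kept their direction in 7 alternatives. No paired analysis was possible because the columns carry no replicate number. The intervals of Hspa1a, Hspa1b and Hspb1, which had under 100 counts in each library, were the widest among the chaperones.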
